A study of Mus musculus with 3 samples.

Results

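The replication-dependent histone genes were described in chromatin-bound RNA of mouse bone-marrow-derived macrophages. Members were the genes whose symbol begins with Hist1h, Hist2h, Hist3h or Hist4h and that have at least 1 transcript annotated as protein-coding, which gave 67 genes of 55536 gene IDs. They comprise 6 linker histone H1 genes, 18 H2A genes, 18 H2B genes, 12 H3 genes and 13 H4 genes. By the symbol, 54 belong to Hist1, 10 to Hist2, 2 to Hist3 and 1 to Hist4. The choice used names only and no measured value. A further 3 IDs with such a symbol have no protein-coding transcript and were left out.

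All 3 libraries belong to 1 group. Primary macrophages, differentiated from bone marrow of C57BL/6J mice, received Lipid A (100 ng per ml) as a pre-treatment of 12 h, rested without it for 12 h and were collected 0 min into another exposure at the same dose. Lipid A is the membrane anchor of bacterial lipopolysaccharide and the ligand of TLR4. No untreated group was analysed here, so every value is a level in this state. The 3 are labelled as biological replicates with 1 shared donor identifier, and nothing says whether they came from separate animals or cultures, so the spread between them may be technical; sex and age were not collected. Ribosomal RNA was depleted from the chromatin fraction and no selection for poly(A) tails is given in the labels.

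The 5 histone classes package DNA: pairs of H2A, H2B, H3 and H4 form the nucleosome core, and H1 binds the linker DNA between cores. The replication-dependent genes supply the bulk of new histones during S phase. They are clustered and mostly free of introns, and their mRNAs usually end not in a poly(A) tail but in a conserved RNA stem-loop, which the protein SLBP binds while the U7 particle directs cleavage just after it. Some of these genes are also known to make longer, polyadenylated transcripts in differentiated cells. In a bulk sample, fewer cells in S phase and less RNA per cell cannot be told apart.

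The stem-loop is the feature that most members share beyond their names, and it is shown here because its place in the annotated transcript decides how the reads below are read. It was searched in the 100 bases after the stop codon of each member's leading protein-coding transcript as 16 letters, 2 complementary arms of 6 and a loop of 4, with at most 4 differences from the consensus. This rule was set after the sequences had been seen, since a stricter one left out most H4 genes. Each line gives the stem-loop in capitals with up to 5 bases on either side, read 5′ to 3′ from GENCODE M21 transcripts with U written as T; all positions are on mm10.
Hist3h2a (H2A, chr11:58955172-58955187, plus strand): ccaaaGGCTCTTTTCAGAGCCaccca
Hist1h1c (H1, chr13:23739512-23739527, plus strand): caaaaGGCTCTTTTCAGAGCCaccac
Hist1h2bg (H2B, chr13:23571843-23571858, plus strand): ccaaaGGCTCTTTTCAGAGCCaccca
Hist1h3e (H3, chr13:23561903-23561918, minus strand): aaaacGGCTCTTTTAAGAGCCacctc
Hist2h2ac (H2A, chr3:96220418-96220433, minus strand): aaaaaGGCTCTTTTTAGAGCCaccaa
Hist1h4m (H4, chr13:21812129-21812144, plus strand): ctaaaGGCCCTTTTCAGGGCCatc
Hist1h4i (H4, chr13:22040966-22040981, minus strand): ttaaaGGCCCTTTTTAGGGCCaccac
Hist1h4b (H4, chr13:23757366-23757381, plus strand): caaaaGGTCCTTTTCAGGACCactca

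A stem-loop was found in 45 of the 67 members, between 21 and 58 bases after the stop codon with a median of 31. The exact consensus, as printed for Hist3h2a, stood in 25 of them. The 5′ arm divided the classes: GGCTCT was the arm in all 33 matched members that are not H4 genes (4 H1, 11 H2A, 9 H2B and 9 H3), whereas the 12 matched H4 genes carried GGCCCT in 10 cases and GGTCCT in 2. The other arm changed too in each of these, as the search required complementary arms. Anywhere in a transcript, the exact 16 letters occurred in 28 of 21951 protein-coding genes (0.128%), and 26 of those 28 were members. Of the 22 members without a match, 17 have a leading model with at most 2 bases after the stop, so the search could not find one there. The other 5 have 16 or more annotated bases after the stop and no match in the part searched (Hist1h1a, Hist1h2bc, Hist1h2bp, Hist2h2be and Hist2h3b). A stem-loop can have been missed in these 5 as well. Hist2h3b has only 37 bases after the stop, and in the near-identical Hist2h3c2 the stem-loop starts 30 bases after it. Hist1h1a has 48 bases, and the models of Hist1h2bc and Hist1h2bp have 2 exons. In Hist2h2be only the first 100 of 2192 bases were searched.

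Together the histone genes took 0.0177% of the estimated counts on genes in replicate 1 (95% Wilson interval 0.0169 to 0.0184), 0.0139% in replicate 2 (0.0133 to 0.0144) and 0.0155% in replicate 3 (0.0150 to 0.0161), which is 2084, 2384 and 3012 estimated reads. The mean was 0.0157% ± 0.0019 (SD, n = 3), and the intervals cover counting error only, as no molecular identifiers mark independent molecules. All 3 libraries had 1 TPM or more (TPM is an abundance per length, scaled to a fixed total per library) for 33 of the 67 members, 49.3%, against 46.1% of all 22015 nuclear protein-coding genes. The member share is close to the background there. It was 44 of 67 at 0.5 TPM, against 49.5% of all, and 25 of 67 at 2 TPM, against 41.6%. By the read-based tables described below, 35 of 67 members reached 1 TPM throughout, against 57.1% of all. No estimated read fell on 5 members in any library, against 27% of all protein-coding genes. The median member had 1.3, 1.96 and 1.97 TPM in replicates 1, 2 and 3, and the median protein-coding gene 0.59, 0.8 and 1.18 TPM.

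The libraries held 11802407, 17201281 and 19428384 estimated counts on genes, from 1000, 250 and 500 ng of starting RNA in replicates 1, 2 and 3. Of 15 macrophage markers 13 reached 1 TPM in all 3 libraries, with summed levels from 1265 to 1466 TPM. Fibroblast and stromal markers summed to 1.3, 2.57 and 596 TPM in replicates 1, 2 and 3; of these 11 genes 7, 3 and 0 were at 0. Replicate 3 therefore stands apart for that list, and results were also computed without it. Lymphocyte markers summed to at most 1.95 TPM, and 1 of 11 granulocyte and progenitor markers passed 1 TPM.

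**Figure D1:**
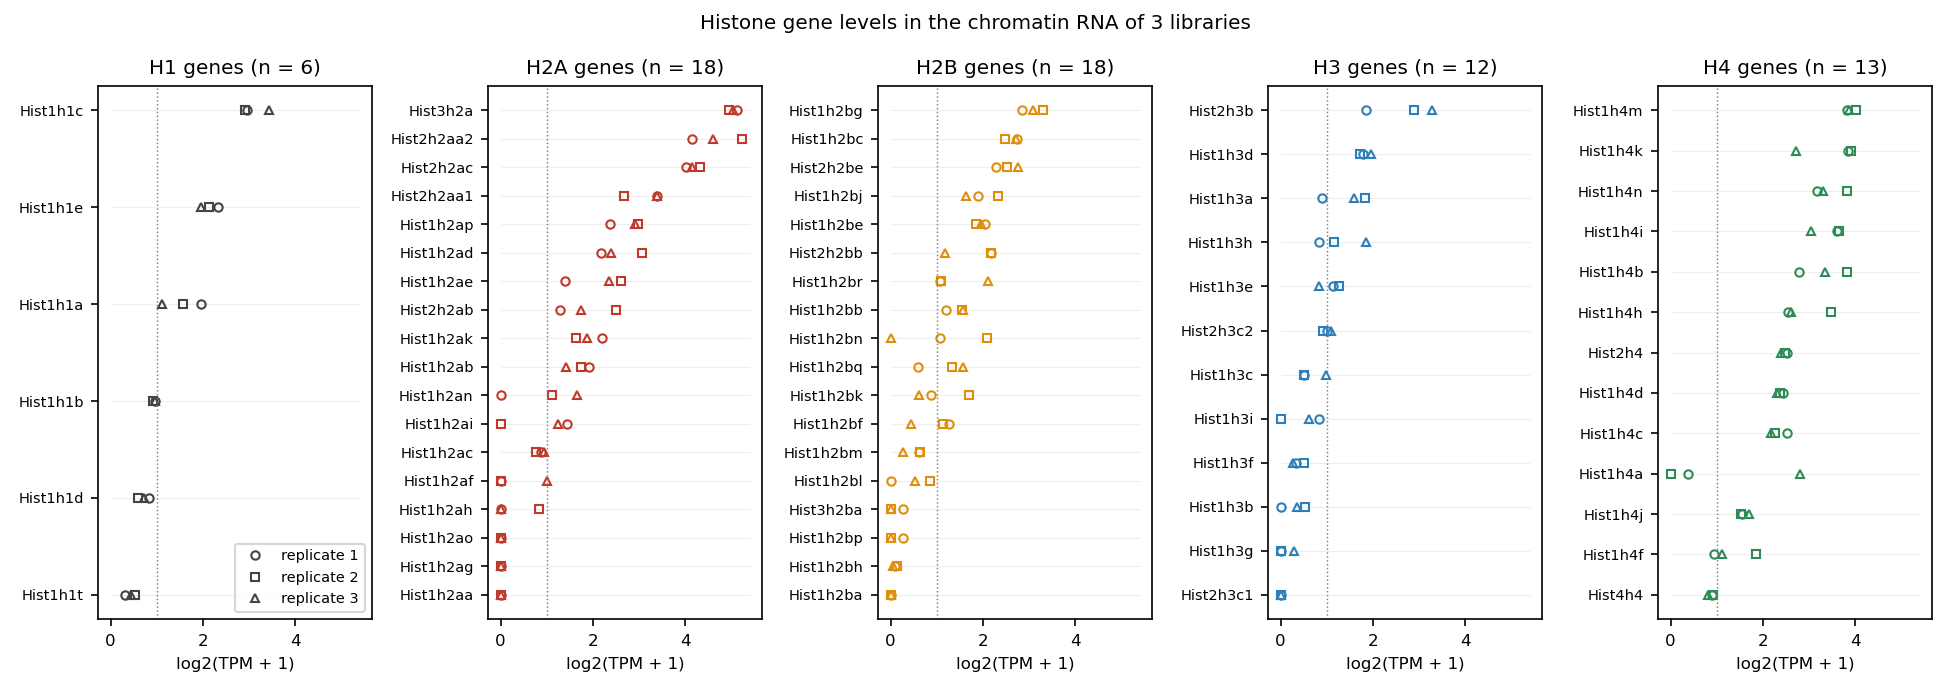
Level of each of the 67 histone genes in 3 libraries, as log2(TPM + 1) on the horizontal axis, in 1 panel per class, with genes ordered by mean TPM. Circles, squares and triangles are replicates 1, 2 and 3, and the dotted line marks 1 TPM; Hist3h2a and Hist2h2aa2 lead, 10 of 13 H4 genes are right of the line in every library and 2 of 12 H3 genes are.

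The 5 classes had different median levels, with H4 genes at the top and H3 genes at the bottom. The median H4 gene had 4.79, 4.59 and 5.12 TPM in replicates 1, 2 and 3. The median H2A gene had 1.68, 2.23 and 2.24 TPM, the median H2B gene 1.1, 1.72 and 0.905 TPM, and the median H1 gene 1.92, 1.43 and 1.06 TPM. The median H3 gene had 0.79, 0.66 and 0.89 TPM. H3 was the lowest class and H4 the highest in 3 of 3 libraries, with a mean H3 minus H4 difference of -4.05 ± 0.157 TPM (SD, n = 3), whereas H1 and H2B changed places between libraries. With 3 libraries, the smallest p of an exact two-sided sign-flip test is 0.25, so that test cannot pass a threshold of 0.05 for any class difference.

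H3 kept the lowest median under every alternative tried, although in replicate 3 it was only 0.015 TPM below H2B, and H4 did not keep the highest. Among members with an effective length (the length over which a fragment can start) of at least 200 bases in every library, the median of mean TPM was 5.05 for 11 H2A genes, 4.09 for 8 H4 genes and 0.812 for 10 H3 genes. Without length scaling, as CPM (counts scaled for depth only), H1 led with 2.56 and H4 followed with 1.68; the H1 genes have mean effective lengths of 498 bases or more. The members that reached 1 TPM in all libraries numbered 3 of 6 for H1, 10 of 18 for H2A, 8 of 18 for H2B, 2 of 12 for H3 and 10 of 13 for H4. Summed over each class, the order was another one: H2A held 95.3, 123 and 108 TPM, H4 74.5, 95.4 and 71.5 TPM, H2B 32.4, 41 and 34 TPM, H1 15.7, 13.8 and 15.8 TPM, and H3 10.4, 16.2 and 20.5 TPM in replicates 1, 2 and 3. By sums H3 was below H1 in replicate 1 only.

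The leading gene was Hist3h2a (ENSMUSG00000078851.4, chr11:58954685-58956830, plus strand), which encodes a core histone H2A and is named H2aw in RefSeq. It had 33.9, 30.2 and 32 TPM in replicates 1, 2 and 3, from 773, 797 and 1046 estimated counts, a mean of 32.0 ± 1.89 TPM (SD, n = 3). The 3 libraries lie close together in this unit, but less so in others: Hist3h2a had 30.6, 19.6 and 24.0 read-based TPM and 64.6, 48.9 and 52.4 TMM-normalised CPM. Hist3h2a alone took 37.1%, 33.4% and 34.7% of all histone counts in replicates 1, 2 and 3. Its annotated exon of 2146 bases lies wholly inside the span of Trim17, a ubiquitin ligase gene on the same strand, which had 4.98, 6.15 and 5.25 TPM; reads of the shared stretch can be assigned to either gene. The counting left an assignment SD of 0.274%, 0.262% and 0.285% of its count, which was small beside that of the paired genes below. This SD covers only the division of reads among annotated transcripts. Of the stretches of the Hist3h2a model compared by sequence (below), 31.5% occur in other genes' transcripts on the same strand. Reads of unspliced Trim17 RNA over the rest would be placed on Hist3h2a without raising the SD. Their part in its count was not tested. Hist3h2ba, the H2B gene beside Hist3h2a and the other Hist3 member, had 0.21, 0 and 0 TPM, which is 1 estimated count in all.

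Hist2h2aa2 followed as the second highest member; its coding sequence is identical over 393 bases to that of Hist2h2aa1, so both encode the same H2A protein. Hist2h2aa2 had 16.9, 36.7 and 23.2 TPM in replicates 1, 2 and 3. Hist2h2aa1 had 9.54, 5.43 and 9.55 TPM. Where the first was highest, in replicate 2, the second was lowest, and the assignment SD was 47.1%, 44.4% and 27.2% of the count of Hist2h2aa1. The split between the pair is therefore uncertain; their sum was 26.4, 42.1 and 32.8 TPM (33.8 ± 7.9, SD, n = 3). The sum is uncertain too, since Hist2h2aa2 lies wholly under the antisense transcript Gm20632 and Hist2h2aa1 wholly under the antisense transcript Gm20633, with 529 of its 586 bases inside Gm20634 on its own strand. Gm20634 had 126, 146 and 245 counts in replicates 1, 2 and 3, and whether reads were counted by strand is unknown here. Hist2h2ac (ENSMUSG00000068855.3), a neighbouring H2A gene, had 15.3, 19.1 and 16.7 TPM with an assignment SD of at most 0.147% of its count, and its libraries did not scatter. At the low end of the class, 3 H2A genes had no alignment-based counts: Hist1h2ag, Hist1h2ao and Hist1h2aa, of which Hist1h2aa is a testis form. Hist1h2ao is identical in coding sequence to Hist1h2ap, on which all 13.5, 21.2 and 26.4 counts of that pair were placed, so the 0 of Hist1h2ao depends on how shared reads were divided.

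Among H4 genes, which all encode core histone H4, the highest were Hist1h4m, Hist1h4k and Hist1h4n. Hist1h4m (ENSMUSG00000069306.5) had 13.1, 15.3 and 13.7 TPM in replicates 1, 2 and 3. Its coding sequence is identical to that of Hist1h4n, which had 8.08, 13.1 and 8.82 TPM, and the sum of the pair was 24.0 ± 3.85 TPM (SD, n = 3). Hist1h4k had 13.4, 14 and 5.56 TPM from only 18, 14.6 and 8.12 estimated counts; its model is the bare coding sequence of 312 bases with a mean effective length of 90.9 bases. At that length 3 counts, the most that a count of 0 allows, equal 2.24, 2.88 and 2.05 TPM, against 0.132, 0.114 and 0.0917 TPM for Hist3h2a. High TPM values of the shortest models thus rest on few reads. Hist1h4i, with 11.2, 11.6 and 7.24 TPM, rested on 68, 74.8 and 59.5 counts. Hist4h4, the lowest H4 gene and the only member of its cluster, had 0.87, 0.88 and 0.75 TPM.

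Hist1h4a differed most between libraries. It had 0.3, 0 and 5.99 TPM in replicates 1, 2 and 3, or 1.18, 0 and 30 estimated counts. The signal was thus found almost wholly in replicate 3, the library in which the stromal marker list is high; the part of those cells in this value was not tested. The SD of log2(TPM + 1) was 1.52, the largest of any member. Next came Hist1h2bn, an H2B gene with 1.1, 3.28 and 0 TPM, and Hist1h2an, an H2A gene with 0, 1.15 and 2.14 TPM. These rested on at most 5.85 and 5.6 counts in a library.

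The highest H2B genes were even across libraries. Hist1h2bg had 6.16, 8.82 and 7.47 TPM in replicates 1, 2 and 3. Hist1h2bc had 5.64, 4.6 and 5.63 TPM, and Hist2h2be had 3.88, 4.74 and 5.8 TPM. All 3 encode core histone H2B. Hist1h2bc and Hist2h2be, 2 of the genes with no stem-loop match in the 100 bases searched, rested on 57.5 to 88 and on 110 to 237 counts. Hist1h2ba, the H2B gene of testis, had 0 counts in every library. It lies with Hist1h2aa in a pair of its own on chromosome 13, and both were at 0 in both quantifications.

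Linker histone genes were led by Hist1h1c, with 6.77, 6.58 and 9.74 TPM in replicates 1, 2 and 3. Hist1h1e had 4.05, 3.38 and 2.91 TPM, and Hist1h1a had 2.88, 1.96 and 1.18 TPM. These 3 somatic H1 genes reached 1 TPM throughout. Hist1h1t, the testis form of H1, had 0.24, 0.44 and 0.35 TPM from 2, 4 and 4 counts.

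The H3 genes were low with few exceptions. Hist2h3b had 2.59, 6.47 and 8.76 TPM in replicates 1, 2 and 3, and Hist1h3a had 0.85, 2.58 and 2.02 TPM. Hist1h3d had 2.43, 2.32 and 2.91 TPM, the steadiest of these 3 H3 genes. Hist2h3b carried an assignment SD of 38.8%, 15.9% and 9.94% of its count and lies wholly under an antisense transcript, Gm20628. Hist2h3c1 had no counts in any library and lies wholly inside Gm20634 on the same strand, which had 3.9, 3.86 and 5.26 TPM; reads there cannot be told apart by position. Coding sequences of H3 genes matched each other at a median of 97.1% of bases, more than those of H4 (93.9%), H2B (94.0%), H2A (91.3%) and H1 (70.6%).

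**Figure D2:**
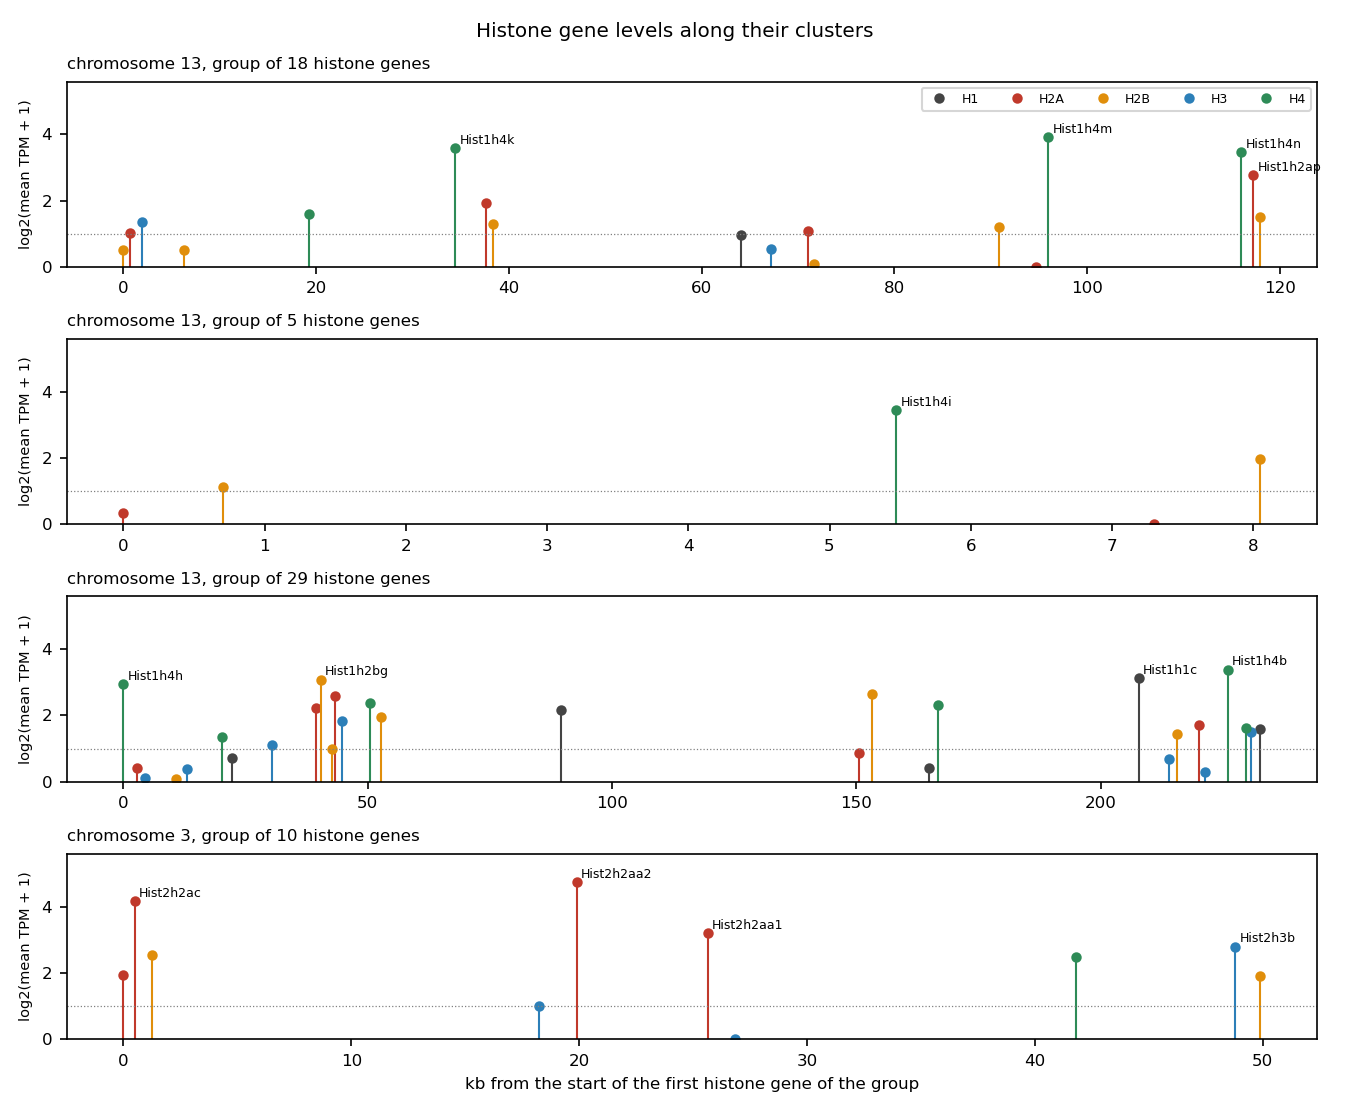
Mean level of the histone genes along 4 of their clusters, as log2(mean TPM + 1) of 3 libraries against the distance in kb from the first histone gene of the group; colours give the class, the dotted line 1 TPM, and members of at least 5.5 TPM are named. The 10 genes on chromosome 3 are high for 8 members, while in the largest chromosome 13 group high and low genes are interspersed.

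By position, the chromosome 13 genes fell into groups of 18, 5, 29 and 2 members when a gap of over 100 kb divided them. The 10 Hist2 genes on chromosome 3, within 50.3 kb, had a median of 3.71, 4.72 and 5.05 TPM in replicates 1, 2 and 3. In the group of 29, within 233 kb, the median was 1.4, 2.32 and 1.96 TPM, and in the group of 18, within 122 kb, it was 1.03, 1.19 and 2.06 TPM. The Hist2 median was the highest of the 3 groups in 3 of 3 libraries. At 1 TPM or more in every library were 8 of 10, 15 of 29 and 7 of 18 members. Neighbours could differ in assigned counts: Hist1h2ag, at 0, lies in the same 5-gene group of 8.51 kb as Hist1h4i. The 0 of Hist1h2ag depends on how shared reads were divided, since 78.9% of the 50-base stretches of its model occur in other genes' transcripts. Its read-based TPM was at least 2-fold higher in every library (below).

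Most estimated counts fell on members with extended annotated models, which also make up most of the annotated bases of the leading transcripts. Of the 67 models, 23 run over 100 bases past the stem-loop, 22 end within 100 bases of it, 17 hold at most 2 bases past the stop codon and 5 have a tail with no match. Counts are gene totals, so those of Hist1h2bq and Hist1h2br, placed with the 17, include their long transcripts (below). The 23 extended models held 71.5%, 65.8% and 68.5% of all histone counts in replicates 1, 2 and 3. The 22 that end near the stem-loop held 14.8%, 19.0% and 15.1%. As TPM, which divides by effective length, the order was different, with 39.8%, 31.3% and 37.6% of histone TPM on extended models and 40.8%, 50.4% and 43.4% on those ending near the stem-loop. Per annotated kb, the extended models held 40.0, 42.1 and 55.4 counts in replicates 1, 2 and 3. Those ending near the stem-loop held 28.1, 41.4 and 41.5 counts per kb. That order rests on Hist3h2a, an extended model of 2146 bases with 773, 797 and 1046 counts. Without it, the other 22 held fewer counts per kb than the models ending near the stem-loop in every library. These 22 held 54.7%, 48.6% and 51.7% of the remaining counts, below their share of the remaining annotated bases. Gene totals do not show where along a model the reads lie, so reads of the stem-loop form and of a longer form of the same gene were not separated here.

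**Figure D3:**
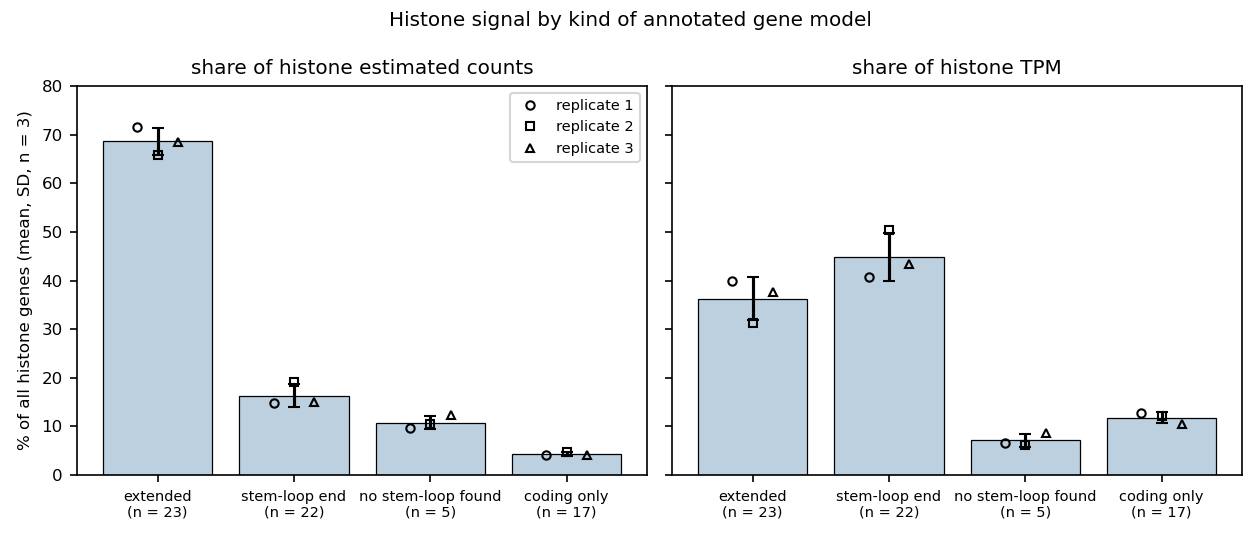
Share of all histone estimated counts (left) and of all histone TPM (right), in percent, on 4 kinds of annotated model, set by the leading protein-coding transcript. Values are gene totals, so other transcripts of a gene count with its leading one. Bars are means with SD over 3 libraries and symbols the single libraries. Extended models hold about 65.8% to 71.5% of counts but 31.3% to 39.8% of TPM.

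Only Hist1h2bq and Hist1h2br, an H2B pair with identical coding sequence, have annotated transcripts both above and below 1000 bases and a mean of 1 TPM or more. The long transcripts held 100%, 100% and 10.2% of TPM for Hist1h2bq in replicates 1, 2 and 3. For Hist1h2br they held 100%, 100% and 47.0%. In the read-based table the share was 100% for both genes in every library. Replicate 3 thus differed from the others in the alignment-based table and not in the read-based one, and the assignment SD of Hist1h2bq reached 113% of its count there.

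Each library was quantified in another way by the authors, from the reads and an index rather than from the alignment, which can divide the reads of near-identical genes differently. A stretch of 50 bases shared with another gene's transcript on the same strand covered at least 50% of the model in 32 of 67 members, and 4 members shared none. Read-based TPM was at least 2-fold higher in every library for 4 of 67 members, against 21% of protein-coding genes, and at least 2-fold lower for 1, against 0.127%. The 4 were Hist4h4, Hist1h2bh, Hist1h2ag and Hist1h2ao, named after their values had been seen, and the 1 was Hist2h3b. The count of 4 rests on low genes: it was 0 with 1 TPM added in place of 0.1, 1 among members of at least 1 TPM, and 7 without replicate 1. Hist4h4 had 3.36, 1.92 and 3.28 read-based TPM in replicates 1, 2 and 3, against 0.87, 0.88 and 0.75 alignment-based TPM, the same direction in all 3. Hist2h3b had 1.14, 2.19 and 3.91 read-based TPM, against the 2.59, 6.47 and 8.76 given above.

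Of the other members with large differences, Hist1h2bf, an H2B gene, had a mean of 3.49 ± 1.67 read-based TPM, against 0.983 ± 0.55 alignment-based TPM (SD, n = 3). Hist2h2aa2 had 11.7 ± 4.65 read-based TPM, against 25.6 ± 10.1 alignment-based TPM (SD, n = 3), and its pair sum of 20.1, 17.3 and 17.7 read-based TPM varied less than the alignment-based sum. Hist1h2an and Hist1h2ai, both H2A genes at about 1 TPM, moved in opposite directions with log2 ratios of -1.20 and 1.25. Hist3h2ba had 0.156, 0.562 and 0.573 read-based TPM. Assignment SD above 10% of the count in every library was seen in 4 of 27 members with 10 or more counts, against 0.823% of such protein-coding genes; they were Hist2h2aa1, Hist1h2br, Hist1h4m and Hist1h4n, and each has an identical partner.

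**Figure D4:**
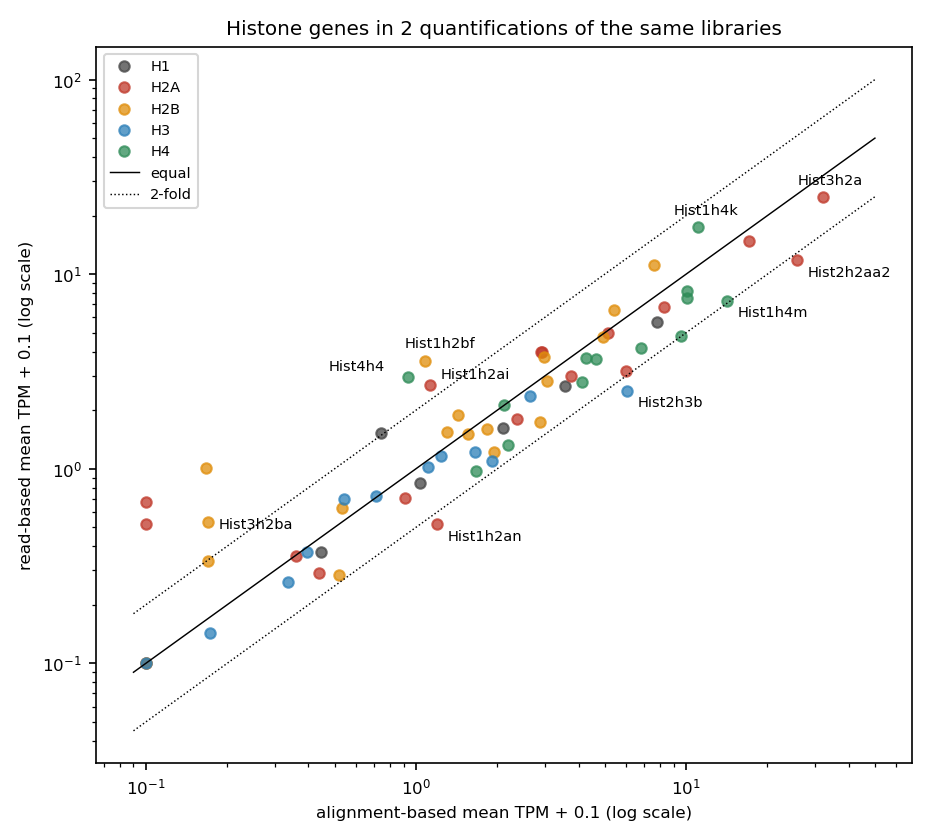
Read-based against alignment-based mean TPM of the 67 histone genes, 0.1 added, both axes on a log scale; points are genes coloured by class, the solid line marks equal values and dotted lines 2-fold differences. Hist4h4 lies above the upper dotted line, and Hist2h2aa2 and Hist2h3b lie below the lower.

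Variation between the libraries was tested for every gene with edgeR's quasi-likelihood fit, which asks whether a gene varies more than genes of its level do. After the filter on low counts 28 members entered, of 14839 genes, and 0 members passed a Benjamini-Hochberg adjusted p of 0.05, as did 0% of all genes tested. At an unadjusted p of 0.05 it was 0 of 28 members, against 5.03% of all genes, and edgeR's bias-adjusted form of the fit also gave 0. The smallest adjusted p of a member by edgeR was 0.992, for Hist2h2aa1. Such p-values measure only the spread between these samples. The filter asks for enough counts in every library. A gene found almost wholly in 1 library, such as Hist1h4a, was thus removed before the test. Without the filter, 1 of 62 members had an unadjusted p under 0.05 by edgeR, against 1485 of 25532 genes. Hist1h4a then had the smallest adjusted p of a member, 0.474. Unadjusted, 2 of 30 members passed by edgeR without replicate 3, against 836 of 14603 genes. It was 1 of 29 without replicate 1, against 781 of 15260. The median SD of log2(TPM + 1) was 0.35 for members and 0.22 for all protein-coding genes, each with a mean of at least 1 TPM. These sets were not matched for level. A mean of 10 TPM or more was reached by 7 of 67 members and by 5991 of 22015 protein-coding genes.

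As TMM-normalised CPM over genes with a mean of 10 counts or more, 22 of 33 members were higher in replicate 1 than in replicate 2, with a median log2 ratio of 0.30, against 46.1% of 12176 protein-coding genes and a median of -0.02. In replicate 1 over replicate 3, 23 of 33 members were higher with a median of 0.26, against 42.4% and -0.07. In replicate 2 over replicate 3 it was 18 of 33 with a median of 0.03, against 44.1% and -0.05. These ratios share libraries. The variability fit called 0 of 28 members but also 0 of 14839 genes, so it does not decide whether members shifted between libraries. The starting RNA differed between all 3 libraries, and its part was not tested.

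Promoters were compared over the 62 members matched by gene to RefSeq promoters of GRCm38.p6, each from 250 bases before to 50 after the start. A CCAAT box, the letters CCAAT on either strand, stood in 53 of 62 (85.5%), against 37.4% of 32851 promoters; all 50 promoters of the other 4 classes had it, and 3 of 12 H4 promoters did. The letters GGTCC of the H4 element stood in 11 of 12 H4 promoters, against 45.5% of all. They stood in 1 of 6 H1, 5 of 18 H2A, 5 of 16 H2B and 4 of 10 H3 promoters. Over all members it was 26 of 62 (41.9%), near the share of all promoters. The octamer ATGCAAAT, known from H2A and H2B promoters and bound by Oct factors, stood in 13 of 62, against 1.74% of all; 7 were H2A and 6 were H2B promoters. TATAAA stood in 35 of 62, against 13.6%, and the H1 box AAACACA in 5 of 6 H1 promoters, against 7.18% of all. The H1 box also stood in 2 of 18 H2A and 2 of 16 H2B promoters. Both strands were searched for each, none of these letter strings contains another, and a match is a description, not a bound site. Some H2A and H2B genes start close together on opposite strands, so their promoter windows overlap and 1 site can be counted for both. Hist1h2ae and Hist1h2bg, Hist1h2ah and Hist1h2bk, and Hist1h2aa and Hist1h2ba share most of their windows, and all carry the octamer. The 62 promoters are thus not all separate sequences, for any of these letter strings. The promoters of the highest H2A gene and the highest H4 gene are shown with matches in capitals: the octamer and a CCAAT box on each strand in Hist3h2a, and the letters TATAAA and GGTCC in Hist1h4m.
Hist3h2a (chr11:58954435-58954734, plus strand): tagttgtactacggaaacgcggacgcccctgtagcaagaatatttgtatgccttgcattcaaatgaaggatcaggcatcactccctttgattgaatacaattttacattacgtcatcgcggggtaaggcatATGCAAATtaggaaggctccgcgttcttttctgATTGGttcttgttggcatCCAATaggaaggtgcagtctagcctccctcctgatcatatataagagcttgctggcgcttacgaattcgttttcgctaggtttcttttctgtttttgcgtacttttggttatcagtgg
Hist1h4m (chr13:21811496-21811795, plus strand): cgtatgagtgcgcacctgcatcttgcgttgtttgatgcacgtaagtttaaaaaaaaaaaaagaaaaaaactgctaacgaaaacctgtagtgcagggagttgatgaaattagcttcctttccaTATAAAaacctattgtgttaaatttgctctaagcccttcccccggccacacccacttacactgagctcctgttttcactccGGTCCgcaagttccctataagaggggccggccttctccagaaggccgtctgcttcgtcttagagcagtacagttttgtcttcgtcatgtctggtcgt

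Replacement histone genes, which are transcribed outside S phase as well and mostly give polyadenylated, spliced mRNA, had the higher median in 3 of 3 libraries. At 1 TPM or more in every library were 9 of 11, and their median was 6.63, 5.92 and 10.6 TPM in replicates 1, 2 and 3. H3f3b, which encodes the replacement histone H3.3, had 127, 156 and 137 TPM. The 12 replication-dependent H3 genes summed to 10.4, 16.2 and 20.5 TPM, against 148, 178 and 162 TPM for H3f3a and H3f3b together, so the groups did not overlap. H2afy (macroH2A) had 94.1 ± 7.05 TPM and H3f3a 22.2 ± 2.07 TPM (SD, n = 3). H1fx, a linker variant, was lowest with 0.08, 0 and 0.42 TPM. The 67 replication-dependent genes summed to 228, 289 and 250 TPM, and the 11 replacement genes to 276, 320 and 327 TPM.

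RNA of genes for factors that make and carry histones was found in the chromatin fraction, while the proteins were not measured. Of 20 genes of histone pre-mRNA processing and the histone locus body 17 reached 1 TPM throughout, led by the cleavage and polyadenylation factors Fip1l1 (66.5 ± 1.93 TPM), Wdr33 (54.9 ± 5.6 TPM) and Cstf3 (45.3 ± 3.12 TPM; SD, n = 3). Slbp, the stem-loop binding protein, had 18.2, 27.2 and 22.2 TPM in replicates 1, 2 and 3, and Npat, the coactivator of histone transcription, had 4.53, 4.64 and 4.6 TPM. Zfp473, which encodes a zinc finger protein of the U7 processing complex in humans, was lowest with 0.273 ± 0.0603 TPM, and Lsm11 of the U7 particle had 0.707 ± 0.139 TPM (SD, n = 3).

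Of 18 histone chaperones 17 passed in every library. Atrx (247 ± 35.6 TPM) and Daxx (101 ± 22.1 TPM), which deposit H3.3 at heterochromatin, led with Ubn2 (70.8 ± 7.42 TPM; SD, n = 3), a subunit of the HIRA complex. The lowest was Asf1b, the ASF1 form tied to dividing cells, with 0.11, 0.58 and 1.25 TPM in replicates 1, 2 and 3. Of 26 S-phase and mitosis genes 20 passed, with a median of 2.4, 3.88 and 4.28 TPM. Pcna, the sliding clamp, had 24.7 ± 2.62 TPM, Cdk2 16 ± 3.54 TPM and the helicase subunit Mcm6 9.46 ± 2.02 TPM (SD, n = 3). Ccnb2, a mitotic cyclin, was lowest with 0.32, 0.23 and 1.36 TPM. Beside the percentages of each list, 46.1% of all protein-coding genes met the same rule.

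**Figure D5:**
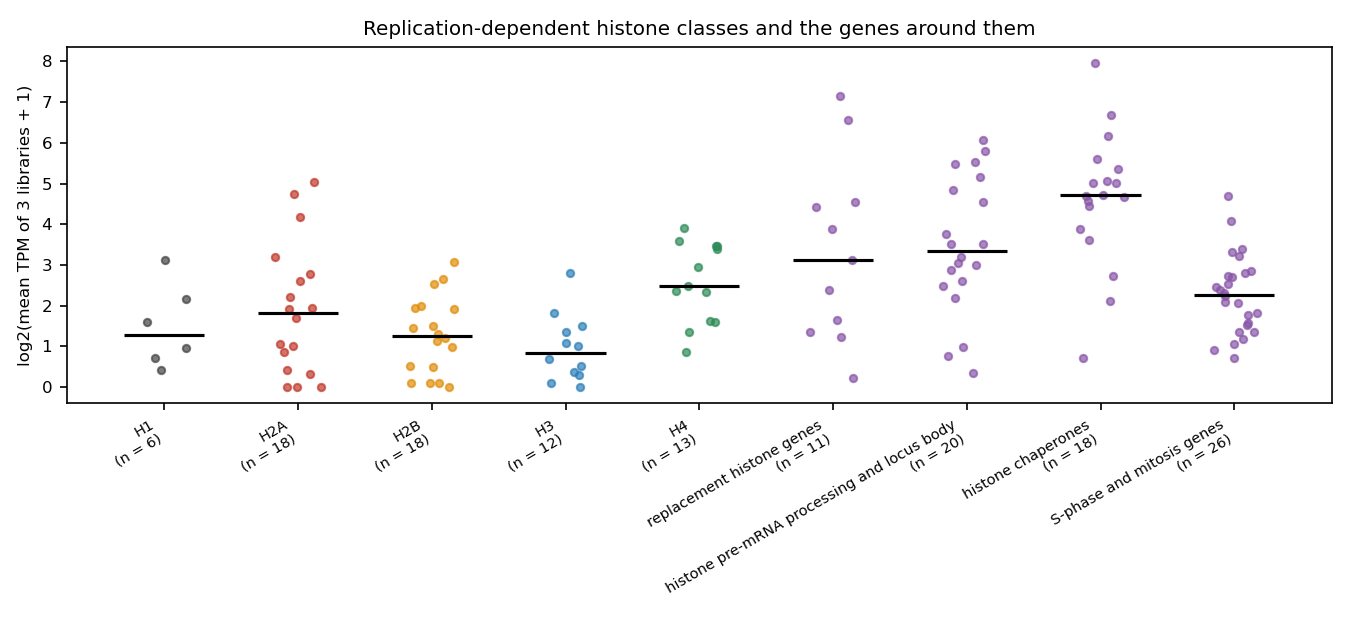
Levels of the 5 histone classes and of 4 related gene lists, as log2(mean TPM of 3 libraries + 1); each point is a gene and each bar the median of its group. The H3 class has the lowest median and the histone chaperones the highest.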

How the data were processed

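Ribosome-depleted RNA of the chromatin fraction was measured in 3 libraries. Per the deposited README files, the gene tables and 1 kind of transcript table came from a transcriptome alignment (mm10, GENCODE M21), and the read-based transcript tables from reads matched to an index. Aligner, versions and strand setting: not given in the sources used here. The authors deposited expected counts, which are estimated reads without normalization, and TPM scaled over all rows. Rows without a gene name (1.31%, 0.476% and 0.24% of expected counts) were left out of totals and tests.

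Levels are deposited TPM. Expected counts were rounded for edgeR 4.0.16 in R 4.3.3 (filterByExpr, TMM, intercept only, quasi-dispersion against the trend, Benjamini-Hochberg threshold 0.05), which was tested on simulated data. DESeq2 1.42.0 gave other size factors. Ratios of quantifications add 0.1 TPM. Other steps used Python 3.11.15. Assignment SD is the deposited posterior SD of a count over that count.

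The symbol rule for members used no measured value, but it and the gene lists were set with earlier results of these data known. Named are, per class, the 3 highest members and the lowest; the 3 largest SDs; the 3 largest differences between quantifications in each direction; members of Hist3 and Hist4; those with long transcripts; and the 3 highest and the lowest of each gene list. Other members named were chosen after their values were seen.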

Additional observations from a re-analysis of the deposited data

Results flagged for a closer look

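Hist3h2bb-ps, a pseudogene with a histone symbol and no protein-coding transcript, was not a member and enters no comparison, but it held 6, 1 and 6 estimated counts in replicates 1, 2 and 3. In replicates 1 and 3 the value of 6 is above the 3 counts that a count of 0 allows. The read-based table gave it 7, 9 and 10.7 counts.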

How the results depend on the processing

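Class medians are not comparable in size across scales. The medians of H1, H2A, H2B, H3 and H4 were 3.39, 5.68, 3.04, 1.86 and 10.4 TPM when rescaled to nuclear protein-coding genes and long non-coding RNAs alone. They were 0.913, 1.06, 0.611, 0.456 and 2.96 counts per annotated kb, scaled for depth, and 2.56, 0.499, 0.313, 0.261 and 1.68 TMM-normalized CPM. Without members under a mean of 0.5 TPM, H1, H2A, H2B and H3 were at 2.01, 3.64, 2.31 and 1.55 TPM. Read-based, H4 was at 3.6 TPM. With effective lengths of at least 200 bases, a limit chosen after seeing the data, H2A was at 5.05 TPM and H4 at 4.09 TPM. H3 had the lowest median under all of these, and H4 the highest except by CPM and by effective length.

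Leaving out 1 library moved the medians of H1 between 1.25 and 1.68, H2A 2.06 and 2.72, H2B 1.06 and 1.69, H3 0.688 and 0.855, and H4 4.44 and 4.69 TPM. Members at 1 TPM or more in every library then numbered 35 to 38, the histone share of counts was 0.0147% to 0.0166%, and the long-transcript share was 64.3% to 100%. Over all settings the first count ran from 24 (TMM-normalized CPM) to 44 (rescaled TPM). Members with at least 2-fold higher read-based TPM numbered 4 to 7 without 1 library (7 without replicate 1), 0 with 1 TPM added, and 1 among members of at least 1 TPM. Without Hist3h2a, chosen after seeing the data, the histone share was 0.0102%. The variability fit called 0 members in every setting run, while its calls over all genes were 0 in the main fit, 10 on read-based counts, 49 without the filter, 8 without replicate 1 and 73 without replicate 3. The cause was not tested for any of these shifts. No paired analysis was possible because the libraries form 1 group. Of the 67 members, 15 had no more than 3 counts in any library, and 42 had more in every library, so levels of the lowest members are limited by depth.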
